A study of Papio anubis with 24 samples.

Results

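hsa-miR-664a is a small regulatory RNA whose human precursor lies inside a small nucleolar RNA (snoRNA). It was described here through its 2 mature arms, hsa-miR-664a-3p and hsa-miR-664a-5p, of 2656 mature miRNAs named in the count table. The members were selected by name, and the row of a name was chosen on its total count over all libraries. Each arm stood under 1 precursor row, with totals of 8979 counts for the 3p arm and 717 for the 5p arm. The pair was put forward with results of these libraries already known. In the fit used here miR-664a-3p had the smallest p of 507 miRNAs between induced lesions and their eutopic endometrium. The levels of both arms in lesions and eutopic endometrium, and their ratio there, are therefore given as a description. The p-values printed for these levels are not read as tests. For relations over animals and for the difference of the lesion effect between the diseases, p-values are also a description, since these hold the known differences. Tests were kept for comparisons of the diseases within a tissue and for other miRNAs. Those on both arms take the same libraries, so their p-values are not independent of this choice.

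Small RNA was sequenced from 12 female baboons (Papio anubis), each of which gave an endometriotic lesion and the eutopic endometrium, the lining of its own uterus. In 4 animals the disease was spontaneous, with no induction. In the other 8 it was induced by inoculating the peritoneal cavity with menstrual tissue, and both tissues were collected 15 months later. No allele or drug distinguishes the groups, and the labels give no age and no batch. All eutopic endometria came from animals with endometriosis, so that no tissue of healthy animals was compared. Library codes begin with another letter in spontaneous than in induced disease, so a difference in handling and the type of disease cannot be told apart. Libraries held 2592999 to 7573913 counts.

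snoRNAs guide chemical modifications of ribosomal and other RNAs in the nucleolus. Some of them, or hairpins within them, are also cut by Dicer into fragments that load into Argonaute proteins and act as miRNAs. In human, the miR-664a hairpin overlaps the H/ACA-box snoRNA SNORA36B in an intron of RAB3GAP2, a regulator of Rab GTPases in membrane traffic, so host transcript, snoRNA and miRNA come from the same primary RNA. The baboon RefSeq annotation (Panubis1.0) was used only to see which genes are neighbours. It places 1 snoRNA gene within RAB3GAP2 and IARS2, a mitochondrial tRNA synthetase, as the next protein-coding gene, but does not list miR-664a itself. The deposited counts are of reads that matched human mature miRNAs. Reads of the whole snoRNA were not counted, so the snoRNA origin rests on the human annotation and not on these data.

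Levels are given as CPM, counts set to a common library size, after TMM scaling, edgeR's correction for libraries in which a few abundant RNAs take up the reads. Both arms had counts in all 24 libraries. miR-664a-3p, with 113 to 1074 counts in a library, ranked 155 of 527 tested miRNAs by average level. miR-664a-5p, with 9 to 72 counts, ranked 353. A level of 3 counts corresponded to 0.319 to 1.41 CPM. The levels of the 5p arm in eutopic endometrium, down to 1.36 CPM, therefore rest on few reads, and this floor covers counting error only.

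miR-664a-3p was higher in the lesion than in the eutopic endometrium of all 12 animals. In spontaneous disease it stood at 74.1, 105, 106 and 163 CPM in the lesions of PA5655, PA6303, PA6627 and PA6762. The eutopic endometria of the same animals held 56.5, 49.3, 23.6 and 17.1 CPM, so that the animal with the highest lesion had the lowest eutopic endometrium. In induced disease the lesions held 81.2 to 190 CPM (median 113, n = 8) and the eutopic endometria 20.8 to 67.4 CPM (median 28.9, n = 8). The highest eutopic value, in PA7539, lay below the lowest lesion of either disease, so the 12 lesions and the 12 eutopic endometria did not overlap.

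Across the 12 pairs 4 of 527 (0.759%) had CPM ranges that did not overlap, all higher in lesions. This contrast was known when the pair was chosen, and nothing is read from the count. The other 3 were miR-23a-3p, miR-125b-1-3p and miR-615-3p, which are named here after their values were seen. Within induced disease 7.3% and within spontaneous disease 13.4% of miRNAs tested were separated in this way. With library totals in place of TMM miR-664a-3p was no longer among them, at 44.8 to 176 CPM in lesions (median 81.5) and 28.7 to 128 CPM in eutopic endometria (median 39.3, n = 12 each). On that scale 0 of 527 miRNAs were separated as higher in lesions over the 12 pairs and 1, miR-10b-3p, as lower.

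The means of miR-664a-3p were 112 ± 36.9 CPM in lesions and 36.7 ± 19.2 CPM in eutopic endometria of spontaneous disease (SD, n = 4 each). In induced disease they were 121 ± 37.6 CPM in lesions and 35.7 ± 15.5 CPM in eutopic endometria (SD, n = 8 each). The fitted log2 fold change of lesions over eutopic endometria was 1.71 in spontaneous (standard error 0.49) and 1.79 in induced disease (standard error 0.17), which is 3.27-fold and 3.46-fold. With the 12 pairs combined it was 1.77 (standard error 0.21), where the median of all miRNAs was −0.14. With TMM the spread between animals was wider in spontaneous disease. Differences within animals ran from 0.39 in PA5655 to 3.24 in PA6762 on the log2 scale, against 1.14 to 2.27 in induced disease. This did not hold with library totals, where they ran from 0.14 to 1.83 in spontaneous disease (SD 0.73, n = 4). In induced disease they then ran from −0.98 to 1.47 (SD 0.83, n = 8).

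**Figure D1:**
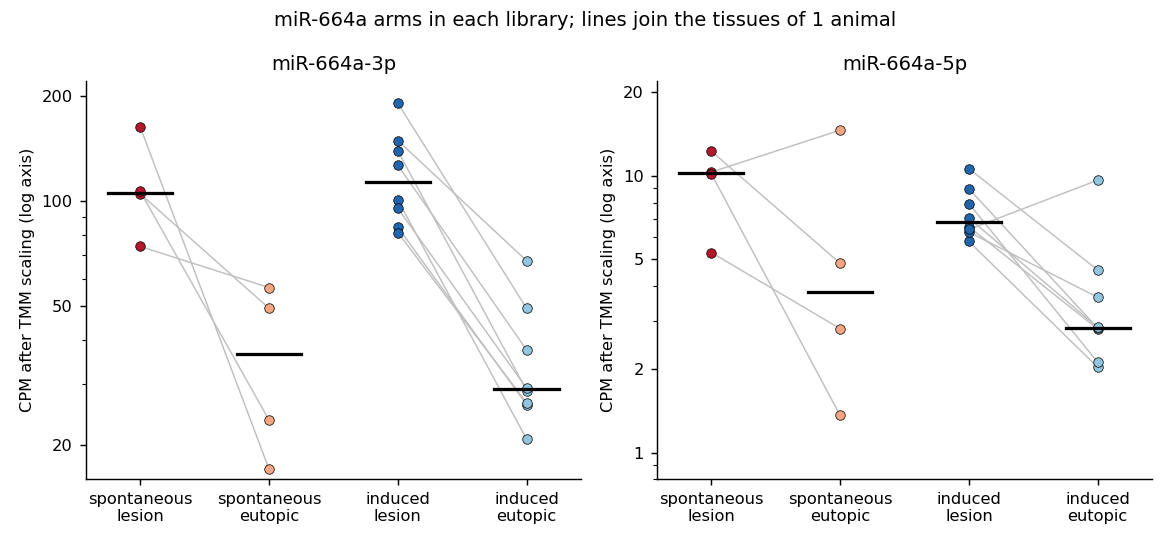
CPM after TMM scaling (log axis) of miR-664a-3p and miR-664a-5p in the 4 spontaneous and 8 induced animals, lesion left of eutopic endometrium. Points are libraries, grey lines join the tissues of an animal and black bars are medians; every line of the 3p arm runs higher at the lesion, while 2 lines of the 5p arm, of PA5655 and PA7696, run lower.

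miR-664a-5p, the arm with fewer reads, stood higher in lesions than in eutopic endometria of 10 among 12 animals. In spontaneous disease the lesions of PA5655, PA6303, PA6627 and PA6762 held 10.3, 12.3, 5.28 and 10.2 CPM. Their eutopic endometria held 14.6, 4.83, 2.80 and 1.36 CPM, so only PA5655 was lower in the lesion. Induced lesions were at 5.79 to 10.6 CPM (median 6.79, n = 8) and induced eutopic endometria at 2.03 to 9.64 CPM (median 2.82, n = 8). There PA7696 was the exception, at 6.40 CPM in the lesion and 9.64 CPM in the eutopic endometrium. The tissues overlapped in both diseases, with these 2 eutopic endometria at or above the level of most lesions of their disease.

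The fitted log2 fold change of miR-664a-5p was 1.12 in spontaneous (standard error 0.60) and 1.13 in induced disease (standard error 0.30), and 1.13 over the 12 pairs (standard error 0.28). The spontaneous value was 0.58 without PA6762 and 1.75 without PA5655. Without PA7696 and PA5655 it was 1.46 over the other 10 pairs (standard error 0.23), and that of the 3p arm 1.91 (standard error 0.21). These animals were left out after their values were seen.

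With a threshold of 0.05 on the adjusted p of edgeR's quasi-likelihood test, 2 of 2 arms were called in induced lesions, where 43.8% of the miRNAs tested were called in either direction. In spontaneous lesions 0 of 2 were called, where the background was 0.206%, and over the 12 pairs 2 of 2, where it was 52.8%. These counts describe arms that were chosen with the same contrast known, so nothing is read from them. In spontaneous disease 90 miRNAs had an unadjusted p under 0.05, miR-664a-3p among them, and edgeR-robust called 45 and DESeq2 48. The call of miR-664a-3p there changed with the method, with an adjusted p of 0.15 in the edgeR quasi-likelihood fit, 0.0149 by edgeR-robust, 0.0171 by DESeq2 and 0.0134 by edgeR with no filter. These p-values belong to the contrast known when the pair was chosen and are a description.

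The scaling set the size of the differences. With library totals the median of all miRNAs over the 12 pairs moved to −0.98, and 38 were called higher and 309 lower, against 135 and 143 with TMM. The log2 fold change of miR-664a-3p was then 0.93 (standard error 0.25) and that of miR-664a-5p 0.29 (standard error 0.30). On this scale miR-664a-3p was higher in the lesion of 11 of 12 animals and miR-664a-5p of 7. PA7539 moved furthest, with a difference of miR-664a-3p of 1.14 with TMM and −0.98 with library totals. The smooth muscle and fibroblast miRNAs took 73.0% of the counts of its lesion and 6.61% of those of its eutopic endometrium. Set against the median of all miRNAs, miR-664a-3p stood 1.92 higher and miR-664a-5p 1.27 higher, with TMM and with library totals alike. A scaling factor shifts all miRNAs and their median nearly equally. This likeness was therefore fixed in advance and does not show which scaling is right.

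**Figure D2:**
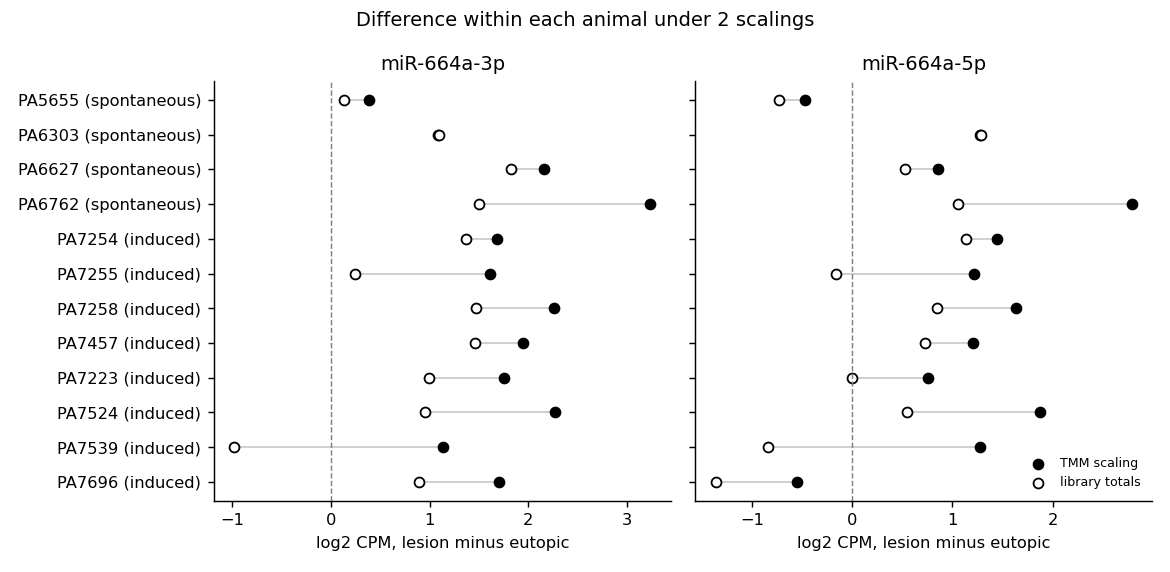
Difference of log2 CPM, lesion minus eutopic endometrium, of each animal for miR-664a-3p and miR-664a-5p, with TMM scaling (filled) and library totals (open). With TMM all 12 animals lie above 0 for the 3p arm and 10 for the 5p arm; with library totals PA7539 falls below 0 for the 3p arm.

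The tissues also differed in their cellular markers. All 10 epithelial miRNAs of the marker list, which stand for the glands, were in the table, and together they took 0.0170% to 1.01% of the counts in lesions and 0.567% to 3.10% in eutopic endometria. The 7 smooth muscle and fibroblast miRNAs took 15.7% to 73.0% in lesions and 6.61% to 32.5% in eutopic endometria. The 5 erythroid miRNAs took 0.0525% to 5.58% in lesions and 0.0188% to 3.21% in eutopic endometria. The 6 leukocyte miRNAs took 0.0408% to 0.964% in lesions and 0.0753% to 0.287% in eutopic endometria, and the 2 endothelial miRNAs 0.305% to 2.44% in lesions and 0.279% to 0.960% in eutopic endometria. Of 6 striated muscle miRNAs 2 were at 0 in every eutopic library, and the list took at most 0.322% in lesions and 0.0620% in eutopic endometria. No other marker was at 0 in all libraries of a tissue. Over the 12 pairs 10 of 10 epithelial miRNAs fell, where 27.1% of all miRNAs tested were called lower. Called higher were 4 of 7 smooth muscle and fibroblast, 3 of 4 striated muscle and 3 of 6 leukocyte miRNAs tested. So were 4 of 5 erythroid and 2 of 2 endothelial miRNAs, where 25.6% of all miRNAs tested were called higher. No other member passed. With library totals the epithelial, striated muscle and erythroid counts were the same. Of smooth muscle and fibroblast miRNAs 4 rose and 3 fell, of leukocyte miRNAs 1 rose and 1 fell, and 0 endothelial miRNAs passed. On that scale 38 of all 527 miRNAs tested were called higher and 309 lower. Fewer cells of a type and less RNA per cell cannot be told apart in such bulk tissue. The part of these shifts in the levels of miR-664a was examined only through the relations over animals.

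Across the 12 animals no relation was found between the difference of miR-664a-3p, lesion minus eutopic endometrium, and that of the epithelial miRNAs. Pearson's r between the change of the 3p arm and that of the mean log2 CPM of the epithelial list was −0.08 (permutation p = 0.795, adjusted p = 0.795), and Spearman's rho −0.12 (permutation p = 0.717). Without PA6303 and PA6762, the animals farthest from the median, r was 0.17. With the smooth muscle and fibroblast list r was 0.39 (permutation p = 0.211, adjusted p = 0.317) and rho 0.34 (permutation p = 0.289), and r was 0.58 without PA6303 and PA7539. Without PA7539 alone it was 0.64 (adjusted p = 0.0461), and within the 8 induced animals −0.31 (exact permutation p = 0.446, adjusted p = 0.670). With library totals r was 0.40 for the epithelial and −0.18 for the smooth muscle and fibroblast list. With 12 animals a weak relation would not have been detectable. The differences of miR-664a-3p are those known when the pair was chosen, so these p-values are a description.

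The differences of both arms were correlated over the 12 animals, with a Pearson's r of 0.70 (permutation p = 0.0137, adjusted over the 3 relations p = 0.0410) and a Spearman's rho of 0.48 (permutation p = 0.115). Both arms share the library and its scaling factor. The differences are also those known when the pair was chosen, so these p-values are a description. The call was lost when any 1 of 7 of the 12 animals was left out. Without PA7696 and PA5655, the farthest in the 5p arm, r was 0.70 (adjusted p = 0.0966), and without PA6762 it was 0.52 (adjusted p = 0.287), the lowest value with 1 animal left out. Within the 8 induced animals it was 0.33 (exact permutation p = 0.413, adjusted p = 0.670), and 4 spontaneous animals were too few for a value of their own.

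The ratio of the arms within a library needs no scaling factor. Whichever arm is loaded into Argonaute accumulates as the guide, while the other is degraded. Here the ratio is one of reads matched to human sequences, and loading was not measured. The 3p arm was the more abundant in all 24 libraries, from 3.02 times the 5p count in the eutopic endometrium of PA7696 to 23.8 times in that of PA7539. The 5p arm made up 4.73% to 12.2% of miR-664a counts in spontaneous lesions (median 8.19%, n = 4) and 7.38% to 20.5% in spontaneous eutopic endometria (median 9.76%, n = 4). In induced disease it made up 4.52% to 8.20% in lesions (median 5.85%, n = 8) and 4.03% to 24.9% in eutopic endometria (median 8.67%, n = 8).

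The share of the 5p arm was lower in the lesion of 10 of 12 animals, with PA7539 and PA6303 as exceptions. On the log2 scale the ratio of 3p to 5p was 0.61 ± 0.64 higher in lesions of spontaneous disease (SD, n = 4 pairs), 0.69 ± 0.72 in induced disease (SD, n = 8 pairs) and 0.66 ± 0.67 over all (SD, n = 12 pairs). The spontaneous value was 0.37 without PA6627. Without PA7696 the induced value was 0.47 and that over all 0.52. The mean log2 ratio was 3.81 ± 0.50 in lesions and 3.14 ± 0.77 in eutopic endometria (SD, n = 12 each). These differences belong to the contrast that the choice of the pair knew and were not tested. In PA7539 the 5p share was 4.52% (exact Clopper-Pearson 95% interval 2.85% to 6.76%) in the lesion and 4.03% (2.22% to 6.68%) in the eutopic endometrium, which lie within counting error of each other.

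The eutopic endometria of 2 animals stood apart in the 5p share. It was 24.9% (exact 95% interval 18.8% to 31.7%) in PA7696 and 20.5% (15.0% to 27.1%) in PA5655, against 4.03% to 11.9% in the other 10. Their intervals lay above the point values of all 22 other libraries. That of PA5655 overlapped the intervals of the eutopic endometria of PA7258 and PA6627, which reached 17.1% and 17.2%. It also overlapped that of its own lesion, which had the highest 5p share of the lesions, at 12.2% (7.82% to 17.9%). In both the 5p arm was high, at 9.64 and 14.6 CPM, while the 3p arm, at 29.1 and 56.5 CPM, was within the range of the other eutopic endometria. The smooth muscle and fibroblast miRNAs took 15.2% of the counts in the eutopic endometrium of PA7696 and 32.5% in that of PA5655, each the highest of its condition. The next highest, PA7457 at 13.7% in induced and PA6303 at 26.3% in spontaneous disease, had 5p shares of 8.48% and 8.92%. Any part of these miRNAs in the 5p level was not tested.

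**Figure D3:**
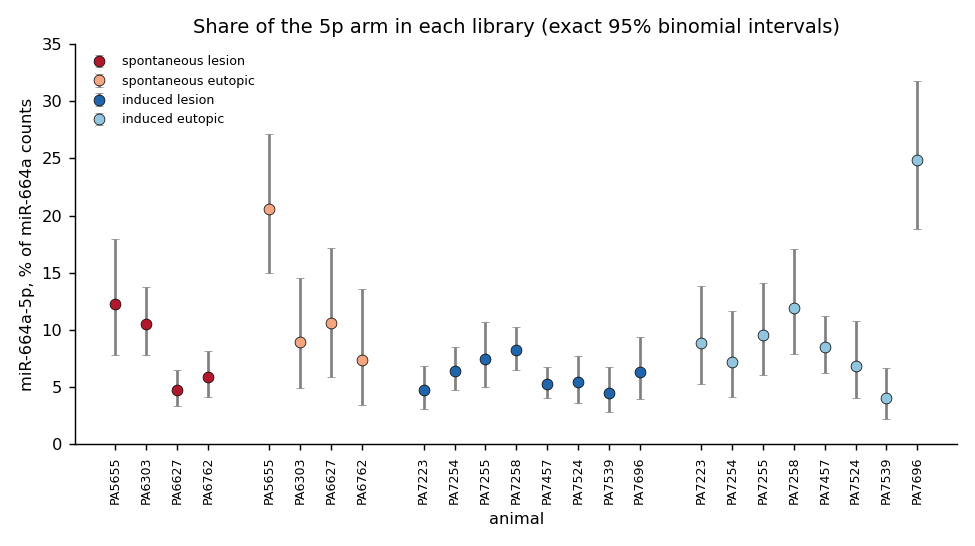
Share of miR-664a-5p in all miR-664a counts of each library (percent, with exact Clopper-Pearson 95% intervals), for spontaneous lesions, spontaneous eutopic endometria, induced lesions and induced eutopic endometria. Most libraries lie below 13%, and the eutopic endometria of PA5655 and PA7696 reach 20.5% and 24.9%.

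Spontaneous and induced disease were then compared. This is another contrast than the one in which miR-664a-3p led by p, but it takes the same induced libraries. Its p-values for both arms are therefore not independent of the choice of the pair. In lesions miR-664a-3p averaged 112 ± 36.9 CPM in spontaneous (SD, n = 4) and 121 ± 37.6 CPM in induced disease (SD, n = 8), a log2 fold change of −0.07 (95% confidence interval −0.70 to 0.56, adjusted p = 0.994 by edgeR's quasi-likelihood test). miR-664a-5p averaged 9.51 ± 2.98 CPM in spontaneous (SD, n = 4) and 7.45 ± 1.64 CPM in induced lesions (SD, n = 8), a log2 fold change of 0.39 (95% confidence interval −0.26 to 1.03, adjusted p = 0.980 by the same edgeR test). Of 467 miRNAs 0 passed (0%), 37 had an unadjusted p under 0.05, and edgeR-robust called 7 and DESeq2 1.

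In the eutopic endometrium miR-664a-3p was at 36.7 ± 19.2 CPM in spontaneous (SD, n = 4) and 35.7 ± 15.5 CPM in induced disease (SD, n = 8), a log2 fold change of 0.04 (95% confidence interval −0.74 to 0.81, adjusted p = 0.995 by edgeR). miR-664a-5p was at 5.90 ± 5.98 CPM in spontaneous (SD, n = 4) and 3.81 ± 2.50 CPM in induced disease (SD, n = 8), a log2 fold change of 0.62 (95% confidence interval −0.57 to 1.8, adjusted p = 0.700 by edgeR). The sign of this value rested on PA5655, without which it was −0.36. Of 507 miRNAs 0 passed (0%), 54 had an unadjusted p under 0.05, and edgeR-robust called 11 and DESeq2 3.

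The lesion effect was not shown to differ between the diseases. The induced value on which miR-664a-3p led by p enters this comparison directly. The p-values of both arms here are therefore a description. The difference, spontaneous minus induced, was −0.08 for miR-664a-3p (95% confidence interval −1.07 to 0.90, adjusted p = 0.974 by edgeR's quasi-likelihood test) and −0.01 for miR-664a-5p (95% confidence interval −1.36 to 1.33, adjusted p = 1.0 by edgeR). Of 527 miRNAs 0 passed (0%), 16 had an unadjusted p under 0.05, and edgeR-robust and DESeq2 called 3 each. Exact permutation of the disease labels over animals gave two-sided p-values of 0.208 to 0.996 for the same 6 differences on log2 CPM (adjusted p = 0.996 for each), where 0.00202 is the smallest p it can give. The intervals reach past a 2-fold difference in 4 of the 6 fits, so that a difference of this size between the diseases was not excluded there.

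The arm ratio did not separate the diseases either. The log2 ratio of 3p to 5p was 3.53 ± 0.71 in spontaneous (SD, n = 4) and 3.95 ± 0.32 in induced lesions (SD, n = 8), a difference of −0.42 (two-sided exact permutation p = 0.184, adjusted over 3 tests p = 0.552). Without PA6627 the difference was −0.67 (exact permutation p = 0.0364, not adjusted), the value farthest from 0 with 1 animal left out. Without PA5655, at the other end, the difference was −0.17 (exact permutation p = 0.564, not adjusted). In eutopic endometria the log2 ratio was 2.92 ± 0.70 in spontaneous and 3.26 ± 0.83 in induced disease (SD, n = 4 and 8), a difference of −0.33 (exact permutation p = 0.515, adjusted p = 0.773). The change between the tissues differed by −0.08 (exact permutation p = 0.865, adjusted p = 0.865). The induced change in this difference was known when the pair was chosen, so its p-value is a description.

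By level the order for miR-664a-3p was induced lesions, spontaneous lesions, spontaneous eutopic and induced eutopic endometria, and for miR-664a-5p spontaneous lesions, induced lesions, spontaneous eutopic and induced eutopic endometria. Neighbours of the same tissue did not differ beyond their spread in either order.

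Other miRNAs of unusual origin were compared next. The list of 9 further miRNAs whose human precursors overlap snoRNAs had 5 in the table and 0 at a level that could be tested. miR-664b-3p and miR-664b-5p, the arms of the paralogous miRNA, had 0 counts in all 24 libraries, which allows up to 0.319 to 1.41 CPM a library. miR-1291, miR-1248 and miR-3651 reached at most 4, 6 and 3 counts. Since the reads were counted against human sequences, a baboon miRNA that differs from its human counterpart can go uncounted.

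Of 14 miRNAs made without Drosha, from capped or intron-derived precursors, 6 could be tested over the 12 pairs. The list had 1 called higher and 1 lower (median log2 fold change −0.04), where 25.6% of all miRNAs tested were called higher and 27.1% lower (median −0.14). With library totals 0 were called higher and 5 lower (median −0.88, where that of all was −0.98). miR-320a-3p, made from a capped hairpin, averaged 1240 ± 350.2 CPM in lesions and 958 ± 383 CPM in eutopic endometria (SD, n = 12 each). Its log2 fold change was 0.40 (adjusted p = 0.0386 by edgeR's quasi-likelihood test). With library totals its value was −0.44. Its call was also lost without the animal as a block (adjusted p = 0.0949), with no filter (adjusted p = 0.111) and by edgeR-robust (adjusted p = 0.0967). miR-877-5p, a mirtron cut from an intron by splicing, fell to 19.8 ± 8.39 CPM in lesions, against 35.3 ± 13.3 CPM in eutopic endometria (SD, n = 12 each, log2 fold change −0.83, adjusted p = 0.00365 by edgeR). miR-484, also from a capped hairpin, had 231 ± 53.3 CPM in lesions against 263 ± 85.0 CPM in eutopic endometria (SD, n = 12 each, log2 fold change −0.15, adjusted p = 0.293 by edgeR).

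miR-215 and miR-194, epithelial miRNAs, lie near miR-664a in the human genome, on the long arm of chromosome 1, in the region of IARS2. Of 3 mature miRNAs 2 could be tested. miR-194-5p, which is also made from another locus, fell to 12.3 ± 13.7 CPM in lesions, against 20.1 ± 11.02 CPM in eutopic endometria (SD, n = 12 each, log2 fold change −0.94, adjusted p = 0.0126 by edgeR). Without the animal as a block it did not pass (adjusted p = 0.121). miR-215-5p had 10.6 ± 12.6 CPM in lesions against 6.15 ± 3.97 CPM in eutopic endometria (SD, n = 12 each, log2 fold change 0.22, adjusted p = 0.673 by edgeR). It was higher in the lesion of only 5 of the 12 animals, with a log2 fold change of −0.34 in spontaneous and 0.40 in induced disease. No other miRNA of this region was tested.

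The miRNAs most like each arm were found by Pearson's r of log2 CPM over the 24 libraries, among 327 miRNAs whose log2 CPM averaged 3 or more. Libraries share tissue, animal and scaling factor, so r is a description. For miR-664a-3p the 5 were miR-29c-5p (r = 0.90), miR-23a-3p (0.88), miR-125b-5p (0.88), miR-338-3p (0.85) and miR-365a-3p (0.85). miR-365b-3p, whose CPM were nearly those of miR-365a-3p, had the same r of 0.85 with miR-664a-3p, and these 2 names cannot be told apart. After each condition was centred on its mean, r was 0.51 to 0.74 for the same 5, of which 1, miR-365a-3p, was still among the 5 closest.

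For miR-664a-5p the 5 were miR-29a-3p (r = 0.91), let-7c-5p (0.88), miR-29c-3p (0.88), miR-99a-3p (0.87) and miR-99a-5p (0.84). The miR-29 family represses collagen transcripts, and let-7c and miR-99a come from the same primary transcript. Here 4 of the 5 were still among the closest after centring, with r = 0.85 for miR-29a-3p and 0.73 to 0.81 for the other 4 miRNAs. With library totals r was 0.75 for miR-29a-3p and 0.46 to 0.66 for the others. miR-664a-3p and miR-664a-5p themselves had r = 0.73, below the r of each with its 5 closest miRNAs, and 0.52 after centring. The 5 of one arm held none of the 5 of the other. The 5 were picked as the highest of 327, and the 5p arm had few counts. No difference between the arms is therefore read from this.

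The likeness to miR-29a-3p included the eutopic endometria of PA7696 and PA5655. They held 1548 and 2411 CPM of miR-29a-3p, with 9.64 and 14.6 CPM of miR-664a-5p. Without both libraries r was 0.91 over the other 22.

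**Figure D4:**
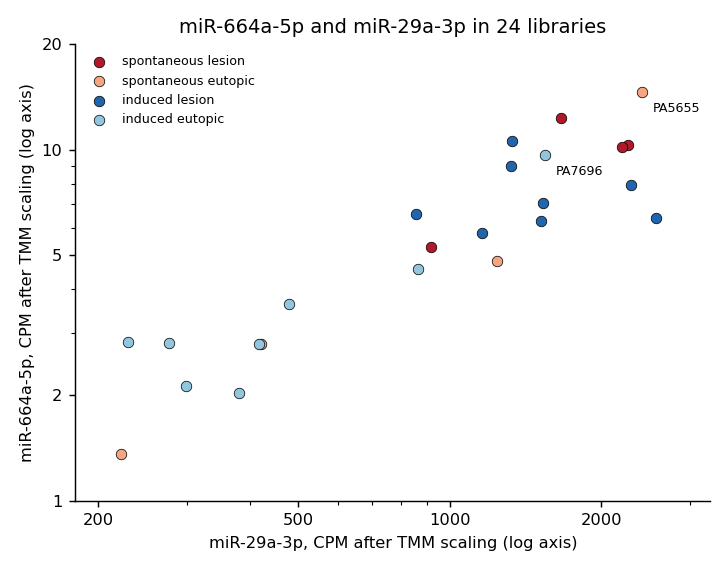
miR-664a-5p against miR-29a-3p in 24 libraries (CPM after TMM scaling, log axes), coloured by condition. The points rise together (r = 0.91), and the eutopic endometrium of PA7696 lies within the range of the lesions on both axes, while that of PA5655, at 14.6 CPM of miR-664a-5p, lies above every lesion on that axis.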

How the data were processed

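The authors isolated RNA with Trizol, made TruSeq small RNA libraries, trimmed reads with Trim Galore 0.3.3 and mapped them with miRDeep2 to human miRNAs of miRBase. They deposited raw counts per mature miRNA, precursor and library. How reads matching more than 1 miRNA were treated is not given in the sources used here.

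R 4.3.3 (edgeR 4.0.16, DESeq2 1.42.0) and Python 3.11.15 (SciPy 1.17.1) were used. For a name with several precursors, the row with the highest total was taken. Fits held the libraries compared, kept miRNAs reaching 2 CPM in 2 or more of these, and used TMM factors, edgeR's robust quasi-likelihood test and Benjamini-Hochberg adjustment over all miRNAs (threshold 0.05), with the animal as a block between tissues. Standard errors are the log2 fold change over the square root of F. Printed CPM use 1 set of factors over 24 libraries, and log2 values a prior count of 1. Relations took 100000 permutations over 12 animals and all of them over 8. Intervals cover counting error only, since PCR copies are not independent molecules. The pipeline was tested on simulated data.

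The labels pair tissues by animal identifier. The deviations of an animal's tissues from their condition means correlated at −0.19 to 0.59 (median 0.18), above 0.1 in 7 of 12 animals. No library repeated another, the smallest chi-square per degree of freedom within a condition being 87.4 over 68 pairs.

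Members, lists and tests were chosen with earlier results of these data known. Named miRNAs were both arms, 3 lists (other snoRNA-derived, made without Drosha, neighbours in the human genome) and the 5 closest to each arm; from the second list those with a call and miR-484 are given in full. Marker lists numbered 6. miRNAs sharing a seed, also planned, are not given, as no sequence table was used here.

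The plan was changed after values were seen. Sign-flip tests of the arm ratio between lesions and eutopic endometria had been planned, with adjustment over 6 tests. Once miR-664a-3p was seen to have the smallest p in induced disease, these were dropped, tests of both arms between the tissues became descriptions, and adjustment was over the 3 ratio tests left. Alternatives for the descriptions were then judged by 1 SD of the differences between animals and no longer by the call. Alternatives were DESeq2's size factors and Wald test, library totals, no filter, filterByExpr, summed precursors, edgeR-robust, no replicate block, no prior count or 0.5, and each animal left out. Leaving out PA7696 and PA5655 together was chosen after seeing the data.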

Additional observations from a re-analysis of the deposited data

Results flagged for a closer look

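In induced disease the difference of miR-664a-5p between lesion and eutopic endometrium was −0.56 on the log2 scale in PA7696, far from the other 7 animals, which lay between 0.75 and 1.87. The difference of the log2 ratio of 3p to 5p was 2.26 in the same animal and −0.14 to 0.99 in the other 7. In the eutopic endometrium of PA7696 the 5p arm had 46 counts and the 3p arm 139. A total of 18 groups of values was examined and 2 values stood out in this way, which rest on the same 5p count of this animal and are not separate events, while chance alone sets apart about 1 in 20 groups.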

How the results depend on the processing

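Of 341 alternative values for miR-664a, 327 stayed on their side of the threshold or, where not tested, moved by less than 1 SD between animals. The sign changed in 36 of them, over 8 results and with neither value passing, and in 0 values of lesions against eutopic endometria. For spontaneous against induced eutopic endometria, library totals gave −0.57 for miR-664a-3p, where TMM gave 0.04. With library totals the lesion value of miR-664a-3p was 0.83 in induced disease and 0.93 over 12 pairs, and that of miR-664a-5p 0.15 and 0.29. The adjusted p of miR-664a-5p by edgeR was then 0.72 in induced disease and 0.41 over 12 pairs, so its calls were lost, although the second value moved by less than 1 SD. Without the replicate block the log2 fold change over 12 pairs was 1.71 for miR-664a-3p and 0.88 for miR-664a-5p, and no call of either arm changed. In spontaneous disease miR-664a-3p passed with no filter, edgeR-robust and DESeq2. These calls of both arms between the tissues are a description, as the pair was chosen with this contrast known. The r between the arms was 0.33 in the 8 induced animals, 0.70 without the 2 farthest and 0.52 to 0.83 with each animal left out; that with the smooth muscle and fibroblast list was 0.24 (without PA5655) to 0.64 (without PA7539). The difference of the arm ratio in lesions, spontaneous minus induced, ran from −0.67 (without PA6627) to −0.17 (without PA5655). In spontaneous disease 1 miRNA passed, against 0 with DESeq2's size factors, filterByExpr, summed precursors, no block or any animal left out, and 14, 68, 45 and 48 with library totals, no filter, edgeR-robust and DESeq2. In eutopic endometria, spontaneous against induced, 0 to 8 passed with an animal left out. Of the 5 miRNAs most like miR-664a-3p, 1 was kept after centring and 3 with library totals, and for miR-664a-5p 3 with library totals. The cause of these changes was not tested. Counts of 9 to 72 limit the 5p arm, and 4 spontaneous animals limit every comparison of the diseases.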
